A study of Mus musculus with 8 samples.

Results

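Osteoblasts that transcribe osteocalcin and the marrow stroma cells that transcribe Cxcl12 and the leptin receptor were compared across all genes in cells released from the adult mouse tibia. A barcode was taken when it held at least 1000 detected genes and at most 20% mitochondrial UMIs (unique molecular identifiers, each standing for 1 captured transcript). It was called an osteoblast when it held at least 20 UMIs each of Bglap (osteocalcin) and Col1a1 (the alpha 1 chain of type I collagen). It was called stroma when it held at least 20 UMIs of Cxcl12 and at least 2 of Lepr and Adipoq together. Of 12564 barcodes, 7989 passed the limits on genes and mitochondrial UMIs. Among them 39 were osteoblasts and 26 were stroma, 65 cells or 0.814% of those that passed (95% interval 0.628% to 1.04%), and 0 met both definitions.

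The cells came from 3 mice at P56 (8 weeks) that received no treatment. All carried 1 floxed Mmp14 allele (MMP14 F/+), a Cre made by hypertrophic chondrocytes (COL10A1cre), a Cre-dependent tdTomato reporter (R26-tdT) and a GFP transgene driven by a Col1a1 promoter fragment (Col1a1-2.3-GFP). Both groups share all of these, and no wild-type mice were compared. Per the study's methods, trabecular bone with some growth plate was digested in steps, the early trypsin digests that held most blood cells were discarded, and the suspension used was rich in tdTomato-positive cells, so that shares of cells are shares of this suspension and not of the bone. The 8 labelled samples were deposited as 1 pool in which no barcode names a sample or a mouse. There is therefore no replicate, no difference below has a replicate check, and all intervals cover counting error only.

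Osteoblasts lay down the type I collagen matrix of bone and the proteins that bind mineral to it. The Lepr-positive, Cxcl12-abundant stroma cells lie around the marrow vessels, where CXCL12 and stem cell factor hold and maintain blood stem cells, and they can give rise to marrow adipocytes and, in the adult, to osteoblasts. Both are cells of the skeletal mesenchymal lineage, and the comparison describes how the cells chosen here as osteoblasts and as stroma differ.

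Promoter windows are shown for the genes of the definitions that have exactly 1 window in the RefSeq table of GRCm38.p6, because these genes separate the groups. Each runs from 250 bases before to 50 bases after the transcript start, on the strand of the gene, and capitals mark matches to TGTGGT (the core bound by RUNX factors) or CCCNNGGG (the core bound by EBF factors, which reads the same on both strands) on either strand. The printed match in the Bglap window is the TGTGGT core read on the other strand. The windows are chr3:88384417-88384716 on the minus strand for Bglap, chr6:117168285-117168584 on the plus strand for Cxcl12 and chr16:23146286-23146585 on the plus strand for Adipoq.
Bglap: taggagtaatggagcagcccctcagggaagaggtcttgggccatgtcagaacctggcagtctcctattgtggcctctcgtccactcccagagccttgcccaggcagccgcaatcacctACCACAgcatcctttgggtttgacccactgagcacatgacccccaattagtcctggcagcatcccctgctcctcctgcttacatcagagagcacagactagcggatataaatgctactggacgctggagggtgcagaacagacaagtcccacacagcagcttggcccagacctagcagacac
Cxcl12: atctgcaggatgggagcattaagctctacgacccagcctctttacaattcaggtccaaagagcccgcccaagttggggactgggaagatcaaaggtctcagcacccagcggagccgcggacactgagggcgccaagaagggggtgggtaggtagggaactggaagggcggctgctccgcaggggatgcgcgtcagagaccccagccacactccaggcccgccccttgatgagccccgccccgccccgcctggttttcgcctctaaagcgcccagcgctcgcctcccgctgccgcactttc
Adipoq: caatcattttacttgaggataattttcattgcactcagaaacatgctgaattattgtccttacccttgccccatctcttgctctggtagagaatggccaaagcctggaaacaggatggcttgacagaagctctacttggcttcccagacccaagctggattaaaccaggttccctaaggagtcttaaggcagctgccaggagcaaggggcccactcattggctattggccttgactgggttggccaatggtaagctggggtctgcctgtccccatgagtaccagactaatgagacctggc
The Bglap window held 1 RUNX core, which begins 132 bases before the start, and no EBF core. The windows of Cxcl12 and Adipoq held 0 of either. Of all 32851 windows in the table, 16.8% held TGTGGT and 13.7% held CCCNNGGG, and a match is a run of letters and not a shown binding site. Among the genes described below that were at least 4-fold higher in osteoblasts, 16 of 89 matched genes (18%) had a window with the RUNX core and 27 (30.3%) with the EBF core. Among those at least 4-fold higher in stroma, 25 of 156 (16%) had the RUNX core and 41 (26.3%) the EBF core, and among all 2109 genes compared that had a window 13.5% had the RUNX core and 22% the EBF core. Neither core was held by most genes of either set, and these shares were not tested.

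An osteoblast held between 3413 and 95852 UMIs (median 21597) and a stroma cell between 2630 and 23814 (median 7335), and the groups summed to 926076 and 221948 UMIs. Levels are given as CPM, counts of a gene per 1000000 UMIs of a cell or of the summed group. The smallest summed level that could be separated from 0 (3 counts) was 3.24 CPM in osteoblasts and 13.5 CPM in stroma, so that absence was shown less sharply in stroma. In osteoblasts the genes Bglap, Bglap2, Col1a1, Col1a2 and Sparc together took 28.3% of all UMIs, from 1.27% to 46.4% of a cell (median 22.9%), against 0.55% in stroma. These 5 genes lower the CPM of every other osteoblast gene, and the median log2 ratio (osteoblasts over stroma) over all genes compared was -0.32. Scaling to genes that hold at most 1% of the UMIs of each group moved all ratios up by 0.397 on the log2 scale.

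The labels given by the definitions were checked against 7 osteoblast markers and 7 stroma markers that were not used in them, leaving out Bglap2, a near-identical copy of Bglap. An osteoblast held between 0 and 7 of the osteoblast markers (median 6), and 25 of 39 held at least 5. Osteoblast markers outnumbered stroma markers in 37 osteoblasts, with a tie in 1 and fewer in 1. Each stroma cell held between 3 and 7 of the stroma markers (median 6), and 26 of 26 held more stroma than osteoblast markers. RNA of other cell types was present in both groups. Summed over 20 neutrophil markers, osteoblasts ranged from 245 to 354714 CPM (median 558) and stroma from 154 to 77801 (median 915), with 0 and 4 of the 20 markers unseen. Over 2% of the UMIs came from neutrophil markers in 4 osteoblasts and 1 stroma cell, and over 5% from 10 erythroid markers in 4 osteoblasts and 1 stroma cell. Over 0.2% came from 13 endothelial markers in 3 stroma cells and 0 osteoblasts. Since 1 osteoblast passed both of the first limits, 7 osteoblasts and 5 stroma cells were concerned. They were kept, and counts without them are given beside the main ones. The blood cell gene Ptprc was not part of these limits. A UMI of it was seen in 10 osteoblasts (25.6%) and 3 stroma cells (11.5%), not all of them among the cells above.

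The cells were selected on their counts of Bglap, Col1a1, Cxcl12, Lepr and Adipoq, so the values of these 5 genes are a description. Bglap (chr3:88383501-88384464, mm10) ran from 1605 to 177890 (median 24659) CPM in osteoblasts and from 0 to 1856 (median 0) in stroma, where 12 of its 16 UMIs were in 1 cell. Col1a1 (chr11:94936224-94953042) ran from 3516 to 161788 (median 60869) in osteoblasts and from 0 to 1393 (median 161) in stroma, with no overlap of the cells. Cxcl12 (chr6:117168535-117181367) ran from 3075 to 27305 (median 16991) CPM in stroma and from 0 to 479 (median 0) in osteoblasts. Lepr (chr4:101717404-101815352), whose product is the leptin receptor, had a UMI in 26 stroma cells and 1 osteoblast. Adipoq (chr16:23146536-23158028), which encodes the adipocyte hormone adiponectin, had one in 20 stroma cells and 0 osteoblasts. At the edge of the definitions, the lowest Bglap counts among osteoblasts were 20, 20 and 22 UMIs, and the highest among cells that failed on Bglap alone were 18, 16 and 15. The lowest Cxcl12 counts among stroma were 27, 33 and 36 UMIs, and the highest among cells that failed on Cxcl12 alone were 12, 4 and 2. The counts thus left a gap between 12 and 27 UMIs around the Cxcl12 limit, and nearly none around the Bglap limit.

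**Figure D1:**
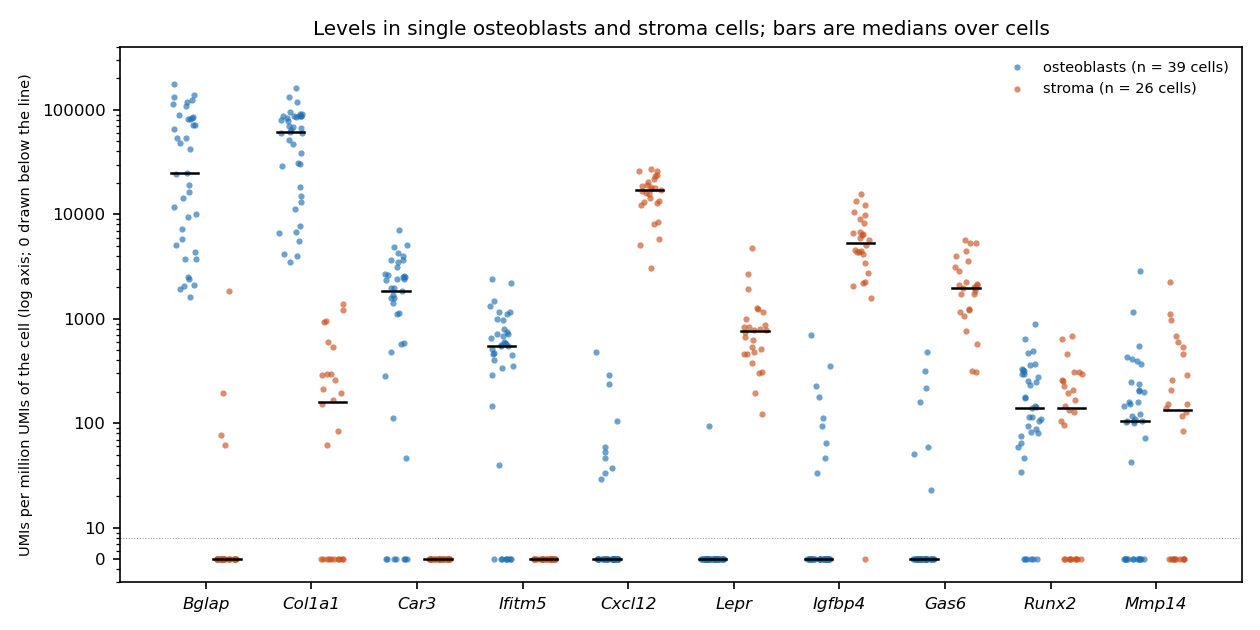
Levels of 10 genes in each of the 39 osteoblasts and 26 stroma cells, in CPM of the cell on a log axis, with cells at 0 drawn below the dotted line and bars at the medians. Bglap, Col1a1, Cxcl12 and Lepr were used to choose the cells. Car3 and Ifitm5 were at 0 in every stroma cell, while the points of Runx2 and Mmp14 overlap.

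Across the genome, 2662 genes had at least 50 UMIs in both groups together. Of these, 137 (5.15%) were at least 4-fold higher in osteoblasts and 212 (7.96%) at least 4-fold higher in stroma, while 1774 lay within 2-fold. Osteoblast calls were 39.3% of all calls, and 51.2% (173 against 165) when the groups were scaled to genes of at most 1% of UMIs. Without the 12 cells that held RNA of other cell types, 111 genes were higher in osteoblasts and 168 in stroma, of which 94 and 146 were among those called with all cells. In 27 of the genes compared no UMI was seen in stroma, and in 7 none was seen in osteoblasts. Cells of the groups did not overlap in CPM for 3 genes, Col1a1, Cxcl12 and Lepr, all of which chose the cells.

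**Figure D2:**
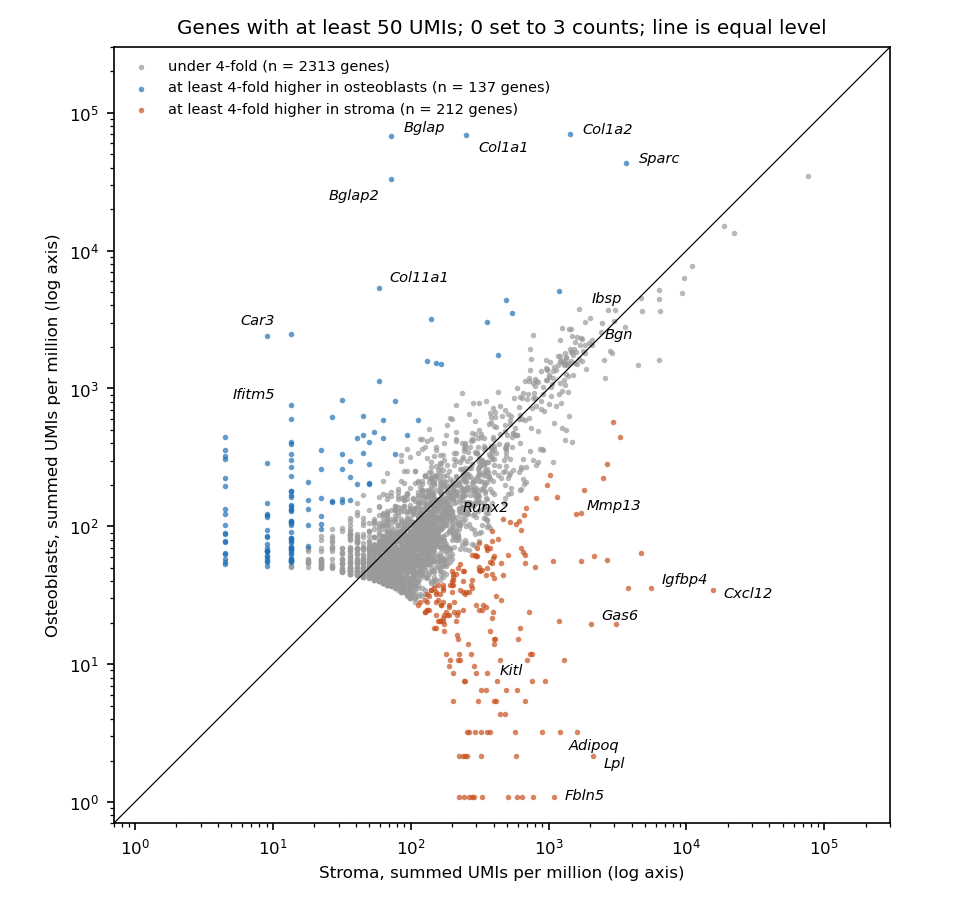
Summed levels of the 2662 genes in stroma (x axis) and osteoblasts (y axis), in CPM on log axes, with a group at 0 set to 3 counts. The 137 and 212 coloured genes lie at least 4-fold from the line of equal level; the type I collagen and osteocalcin genes stand at the top and Cxcl12, Igfbp4 and Lpl at the lower right.

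Of 21 matrix and mineral genes compared, 14 were at least 4-fold higher in osteoblasts and 2 in stroma, beside 5.15% and 7.96% of all genes (median log2 ratio 4.31, against -0.32 for all genes); without Bglap and Col1a1, 12 of 19 were higher (median 3.64), with the copies Bglap2 and Bglap3 among them. Col1a2, the partner chain of type I collagen, ran from 3436 to 122564 (median 64127) CPM in osteoblasts and from 0 to 3696 (median 1215) in stroma, a log2 ratio of 5.62 (95% interval 5.46 to 5.78). The highest stroma cell lay below 38 of the 39 osteoblasts, yet 25 of 26 stroma cells held the transcript. Sparc, the collagen-binding protein osteonectin, was 43189 CPM in osteoblasts and 3663 in stroma (log2 ratio 3.56), and all cells of both groups held it. Bglap2, a near-identical copy of Bglap beside it on chromosome 3, had a log2 ratio of 8.84 (95% interval 8.14 to 9.65) with all cells and of 10.26 when the limit on UMIs of Bglap, Col1a1 and Cxcl12 was raised to 40, and Bglap3 had 156 UMIs in osteoblasts and 0 in stroma. Reads of these copies may be assigned to one another, so their separate levels are uncertain.

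The ranking of the other genes by the interval bound nearest 0 placed Bglap2 first in osteoblasts, which the choice of cells on its near-identical copy Bglap can set, and then Car3, carbonic anhydrase 3. Car3 was seen in 32 of 39 osteoblasts, from 0 to 7060 (median 1854) CPM, and in 0 of 26 stroma cells. With that 0 set to 3 counts it was 185-fold higher. Folds of the other genes at 0 in a group are given in the same way. They leave out counting error and are not strict lower bounds. Ifitm5, the bone-restricted membrane protein BRIL that is mutated in brittle bone disease, ran from 0 to 2423 (median 549) CPM and was 55.7-fold higher with stroma set to 3 counts. Dmp1, an acidic matrix protein of osteoblasts turning into osteocytes, was in 22 osteoblasts and 0 stroma cells and 19.9-fold higher with stroma set to 3 counts, but 1 cell held 30.5% of its UMIs. Of 6 osteocyte genes compared, 3 were at least 4-fold higher in osteoblasts (Dmp1, Irx5 and Fam20c, the last a kinase of secreted matrix proteins) and 0 in stroma, beside 5.15% and 7.96% of all genes, with a median of 1.66. Serpinf1 (pigment epithelium-derived factor, also mutated in brittle bone disease) was in 38 osteoblasts and 14 stroma cells, with a log2 ratio of 4.52 (95% interval 4.02 to 5.08). Smpd3, a sphingomyelinase needed for mineralisation, had 1 UMI in stroma and a log2 ratio of 6.31 (95% interval 3.82 to 11.62). The others in the first 15 were Cthrc1 (a secreted collagen triple helix repeat protein), the carboxypeptidase Cpz, Prss35, Cgref1 and the collagen genes Col1a2, Col11a1, Col11a2, Col13a1 and Col22a1. With stroma set to 3 counts, Cthrc1 was 44.3-fold, Cpz 29.3-fold and Prss35 24.7-fold higher in osteoblasts, each with 0 UMIs in stroma.

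Collagen chains divided between the groups. Of 18 chains compared, 8 were at least 4-fold higher in osteoblasts and 6 in stroma, beside 5.15% and 7.96% of all genes. Without Col1a1, which chose the cells, they were 7 and 6 of 17. With the scaling to genes of at most 1% of UMIs, which raises every log2 ratio by 0.40, the counts over all 18 were 8 and 5. Col11a1 and Col11a2, chains of the fibril-initiating type XI collagen, had log2 ratios of 6.50 (95% interval 5.73 to 7.41) and 8.07 (95% interval 6.21 to 11.11), but both were also high in chondrocytes, at 6545 and 3639 CPM in the 298 cells with the cartilage genes Col2a1 and Acan. Col2a1, the main cartilage collagen, was 619.8 CPM in osteoblasts, 27 in stroma and 777 in neutrophil-lineage cells (log2 ratio 4.52), and at a depth of 3000 UMIs it was expected in 36.3%, 8.43% and 8.69% of these cells. It was seen in 22 of 39 osteoblasts, and cells with 154 and 116 UMIs held the most; the part of free RNA in these values was not tested. Col22a1 and Col13a1, a junctional and a transmembrane collagen, were at least 30.3-fold and 17.1-fold higher in osteoblasts, with 0 UMIs in stroma and low levels in chondrocytes (2.46 and 7.87 CPM).

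The chains higher in stroma included those of basement membranes. Col4a1 and Col4a2, which form the network of basement membranes, had log2 ratios of -5.95 and -6.23, with a UMI in 23 and 21 of 26 stroma cells and in 2 and 2 of 39 osteoblasts. Col8a1 was in 19 stroma cells and 1 osteoblast, a log2 ratio of -9.48 (95% interval -14.79 to -6.98). Col6a1 and Col6a2 had log2 ratios of -3.32 and -2.74. Col3a1, a fibrillar chain of soft tissue, did not separate the groups (log2 ratio 0.16, 95% interval -0.17 to 0.51).

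Of 22 genes that fold and crosslink collagen, 4 were at least 4-fold higher in osteoblasts (P4ha2, Plod2, Creb3l1 and Loxl2) and 1 in stroma (Loxl1, log2 ratio -4.89, or -7.97 when cells with under 40 UMIs of Bglap, Col1a1 or Cxcl12 were left out and -3.73 with every cell given the same weight), with a median log2 ratio of 1.01. The other 17 lay within 4-fold, as did 86.9% of all genes compared, of which 5.15% were higher in osteoblasts. With the scaling that raises every ratio by 0.40, Serpinh1 and P3h4 passed 4-fold as well. Serpinh1, the collagen chaperone HSP47, was in every cell of both groups, at 2458 CPM in osteoblasts and 770.5 in stroma (log2 ratio 1.67). Creb3l1, a transcription factor that drives collagen secretion, had a log2 ratio of 3.04 (95% interval 1.97 to 4.37). Of 32 general secretory genes, 1 (the retrieval receptor Kdelr3, 2.04) passed 4-fold, with a median of 0.37; Kdelr3 was just past the limit and fell to 1.81 without the cells holding other RNA, while 3 genes passed with that scaling. Among them the chaperones Hspa5 and Hsp90b1 had log2 ratios below 0, -1.41 and -1.31, while the translocation genes Ssr4 and Sec61b had ratios of 1.85 and 1.30.

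**Figure D3:**
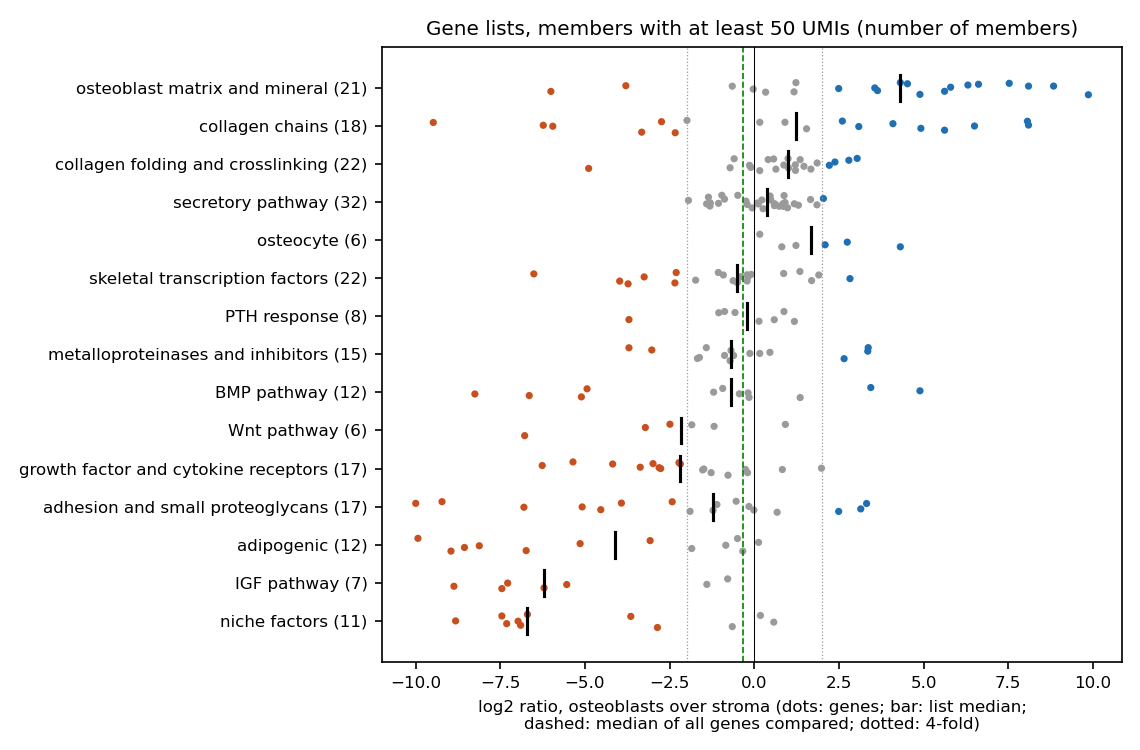
log2 ratios (osteoblasts over stroma) of the members of 15 gene lists that had at least 50 UMIs, one dot a gene, with the list median as a bar, 4-fold as dotted lines and the median of all genes (-0.32) dashed. Matrix genes lie to the right, niche, IGF and adipogenic genes to the left, and collagen chains on both sides; the matrix, collagen, niche and adipogenic lists include genes that chose the cells.

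Of 29 niche factors listed, 11 had enough UMIs to be compared, and of these 8 were at least 4-fold higher in stroma and 0 in osteoblasts, beside 7.96% and 5.15% of all genes (median log2 ratio -6.70; without Cxcl12, 7 of 10 and -5.17). Kitl, stem cell factor, ran from 0 to 4348 (median 729.6) CPM over stroma cells and from 0 to 58.4 (median 0) over osteoblasts, a log2 ratio of -6.97 (95% interval -8.31 to -5.91). Gas6, a ligand of the TAM receptors, was in 26 of 26 stroma cells, from 307 to 5703 (median 1990) CPM, and in 7 osteoblasts, from 0 to 481 (median 0). Its log2 ratio was -6.70 (95% interval -7.47 to -6.02), and 24 stroma cells lay above the highest osteoblast. At a limit of 40 UMIs for Bglap, Col1a1 and Cxcl12, which leaves 31 osteoblasts and 23 stroma cells, the ratio was -9.22, and without the cells holding other RNA it was -8.04. Cxcl14, a chemokine, had a log2 ratio of -7.31 (95% interval -8.07 to -6.64), with 1 osteoblast holding 61.1% of that group's UMIs, and it was -9.35 at the limit of 40 UMIs. Vcam1, the adhesion molecule that retains blood cells, was in 24 stroma cells and 4 osteoblasts (log2 ratio -6.90), and 8 of its 10 osteoblast UMIs lay in 2 cells with 22 and 20 Bglap UMIs. At the limit of 40 UMIs the Vcam1 ratio was -9.12. With every cell given the same weight the ratios of Gas6, Cxcl14 and Vcam1 were weaker, at -6.13, -6.60 and -5.90, while Kitl was -7.40. Pdgfa and Tgfb1 of the same list lay within 2-fold, and Spp1 (osteopontin) did so with all cells but not at the limit of 40 UMIs.

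Of 12 adipogenic genes compared, 7 were at least 4-fold higher in stroma and 0 in osteoblasts, beside 7.96% and 5.15% of all genes (median -4.11; without Lepr and Adipoq, which chose the cells, 5 of 10 and -2.46). The desaturases Scd1 (-0.34) and Scd2 (0.13) were among the 5 that did not pass. Lpl, lipoprotein lipase, ran from 0 to 10761 (median 1504) CPM in stroma and had 2 UMIs in 2 of 39 osteoblasts, a log2 ratio of -9.93 (95% interval -12.98 to -8.07). Apoe, apolipoprotein E, was in 26 of 26 stroma cells, from 159.8 to 10782 (median 3235) CPM, and in 12 osteoblasts, from 0 to 467 (median 0) (log2 ratio -6.74, 95% interval -7.28 to -6.23). Hp, haptoglobin, had a log2 ratio of -5.14, or -6.52 without the cells holding other RNA. Fabp4, a fatty acid carrier of adipocytes and of capillary endothelium, was in 6 stroma cells and 0 osteoblasts, and the 3 stroma cells with endothelial markers held 95% of its UMIs; they also held every UMI of Flt1 in stroma. These 3 cells held 20.9% of the Lpl and 13.7% of the Kitl UMIs, and Lpl was at a log2 ratio of -10.78 and Kitl at -7.72 without the cells holding other RNA.

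Of 15 genes of the insulin-like growth factor (IGF) system, 7 had enough UMIs to be compared, and of these 5 were at least 4-fold higher in stroma and 0 in osteoblasts, beside 7.96% and 5.15% of all genes (median -6.21). Igf1, the growth factor itself, was in 23 stroma cells, from 0 to 3176 (median 537) CPM, and in 2 osteoblasts with 3 UMIs (log2 ratio -7.45, 95% interval -9.75 to -5.87). Igfbp4, a protein that binds IGF and keeps it from its receptor, ran from 0 to 15518 (median 5370) CPM in stroma and from 0 to 695 (median 0) in osteoblasts (log2 ratio -7.28, 95% interval -7.83 to -6.78). Pappa, the protease that cuts IGFBP4, was in 20 stroma cells and 1 osteoblast (log2 ratio -8.87, 95% interval -14.18 to -6.36). Ligand, binding protein and protease were thus high in the same group. Igfbp5 (-6.21) and Igfbp7 (-5.54) followed. Igfbp4 was -7.99, Igfbp5 -7.01 and Igfbp7 -8.39 at the limit of 40 UMIs, but -7.03, -5.75 and -4.32 with every cell given the same weight. With that weighting Igf1 was -6.08 and Pappa -9.17. Igf2r, which clears IGF2, lay within 2-fold (log2 ratio -0.79, 95% interval -1.58 to 0.07).

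Of 12 genes of bone morphogenetic protein (BMP) signals compared, 4 were at least 4-fold higher in stroma and 2 in osteoblasts, beside 7.96% and 5.15% of all genes (median log2 ratio -0.69). Grem1, a BMP antagonist, was in 17 of 26 stroma cells and 0 osteoblasts and, with osteoblasts set to 3 counts, 100.1-fold higher in stroma. Chrdl1 (log2 ratio -8.25, 95% interval -13.57 to -5.73), Fst (-5.11) and Fstl1 (-4.94), of the same function or family, were higher in stroma too. In osteoblasts the BMP list had Bmp3, a BMP that opposes the others (log2 ratio 4.89, 95% interval 2.39 to 10.21), and Bambi, a decoy receptor (log2 ratio 3.44, 95% interval 2.50 to 4.58). Of 6 Wnt genes compared, 0 were at least 4-fold higher in osteoblasts and 3 in stroma, beside the same shares of all genes: Rspo3, which amplifies Wnt signals (log2 ratio -6.78, 95% interval -9.09 to -5.18), and the inhibitors Sfrp4 (-3.22) and Wif1 (-2.49). With every cell given the same weight Sfrp4 and Wif1 fell below 4-fold, at -1.98 and -1.68, and at the limit of 40 UMIs Sfrp4 was -6.66.

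Of 17 growth factor and cytokine receptors compared, 9 were at least 4-fold higher in stroma and 0 in osteoblasts, beside 7.96% and 5.15% of all genes (median -2.18). With the scaling that raises every log2 ratio by 0.40 the counts were 7 and 1, as Fgfr2 (-2.18) and Tnfrsf1a (-2.22) fell under 4-fold and Nrp2 passed it. Pdgfrb, the receptor of platelet-derived growth factor B, was in 23 stroma cells and 8 osteoblasts (log2 ratio -5.35, 95% interval -6.46 to -4.41), and Tgfbr3, the betaglycan co-receptor, had a log2 ratio of -6.26 (95% interval -7.92 to -4.99). Pdgfra, the sister receptor, lay within 2-fold (log2 ratio -0.26, 95% interval -0.85 to 0.37), with a sign that changed between scalings, and so did Fgfr1 (0.83). The highest receptor ratio on the osteoblast side was that of Nrp2, a semaphorin and VEGF co-receptor, at 1.99 (95% interval 1.58 to 2.42), or 2.09 at the limit of 40 UMIs and 2.16 without the cells holding other RNA, both past 4-fold, with Nrp1 at -4.18. Among adhesion and matrix genes, 7 of 17 were at least 4-fold higher in stroma and 3 in osteoblasts, beside the same shares of all genes. Fbln5 and Fbn1, parts of elastic fibres and microfibrils, each had 1 UMI in osteoblasts, against 245 UMIs in 24 stroma cells and 143 in 21. The small proteoglycans Dcn (3.15, or 4.16 at the limit of 40 UMIs) and Lum (3.32, or 6.05) were higher in osteoblasts, Ogn in stroma (-5.08), and Bgn, with a sign that changed between scalings, lay near 0 (log2 ratio -0.01, 95% interval -0.16 to 0.14).

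Of 22 skeletal transcription factors compared, 1 was at least 4-fold higher in osteoblasts and 6 in stroma, while 15 lay within 4-fold. Of all genes compared 86.9% lay within 4-fold, 5.15% were higher in osteoblasts and 7.96% in stroma. With the scaling that raises every log2 ratio by 0.40, 3 factors were higher in osteoblasts and 4 in stroma. Runx2, which osteoblasts need to form, ran from 0 to 887 (median 139.8) CPM in osteoblasts and from 0 to 693 (median 139) in stroma, a log2 ratio of -0.21 (95% interval -0.71 to 0.31). With each cell thinned to 3000 UMIs, so that depth is equal, it was expected in 39.5% of osteoblasts and 40.2% of stroma cells, against 2.35% of neutrophil-lineage cells, and its ratio changed sign between scalings. Sp7 (osterix), which acts after Runx2, was in 27 osteoblasts and 5 stroma cells (log2 ratio 2.83, 95% interval 1.57 to 4.47), or 29% and 8.29% of cells at 3000 UMIs. Mef2c (1.91) was below 4-fold on the osteoblast side, and past it at 2.71 without the cells holding other RNA. On the stroma side stood Ebf3 (log2 ratio -6.51, 95% interval -7.98 to -5.35), Ebf1 (-3.97) and Foxc1 (log2 ratio -3.73, 95% interval -4.38 to -3.11), factors that keep the niche state of these cells, and Runx1 (-2.34), which is better known from blood. Runx1 and Foxp1 (-2.30) fell under 4-fold with that scaling, at -1.95 and -1.91, and Mef2c passed it, at 2.30.

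Several further genes were present at like levels in both groups and at lower levels in the reference cells. By a rule set after the values were seen (a log2 ratio within 1 either way, and both levels at least 4 times those of neutrophil-lineage cells and chondrocytes), 44 of the 2662 genes compared qualified. The gap junction gene Gja1 (log2 ratio 0.16, 95% interval -0.08 to 0.41) and the cadherin Cdh2 (log2 ratio -0.16, 95% interval -0.50 to 0.20) were among them, as were Fap, Prrx1 and Vdr, the vitamin D receptor. The rule asks for a margin and not for absence. Gja1 was 86.9 CPM in chondrocytes, in 60.4% of them, and Fap 58.2 CPM, in 49.7%. Alpl, the phosphatase used to stain osteoblasts, did not qualify, since it was 456 CPM in chondrocytes, beside 14.4 in neutrophil-lineage cells. It was 529 CPM in osteoblasts and 419 in stroma (log2 ratio 0.34, 95% interval 0.01 to 0.67), in 37 of 39 and 14 of 26 cells. Other bone markers were present in both groups at unequal levels. Ibsp, bone sialoprotein, was 3774 CPM in osteoblasts and 1672 in stroma (log2 ratio 1.17, 95% interval 1.02 to 1.33), in 37 and 12 cells, or 90.6% and 47.7% at 3000 UMIs against 1.25% of neutrophil-lineage cells. Spp1 had a log2 ratio of -0.65 (95% interval -0.79 to -0.51), and it was -1.54 at a limit of 40 UMIs, -1.22 without the cells holding other RNA and 0.52, with the sign turned, when every cell weighed the same.

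Mmp14 and Pth1r, the metalloproteinase and the parathyroid hormone receptor that the study is about, were found in both groups. Mmp14 ran from 0 to 2896 (median 106) CPM in osteoblasts, in 26 of 39 cells, and from 0 to 2238 (median 134) in stroma, in 16 of 26. Its log2 ratio was -0.88 (95% interval -1.30 to -0.44), and the cells of the groups overlapped over most of their range. Pth1r ran from 0 to 1826 (median 404) CPM in osteoblasts, in 38 cells, and from 0 to 1237 (median 131) in stroma, in 18 (log2 ratio 1.19, 95% interval 0.71 to 1.70). At 3000 UMIs Pth1r was expected in 70.2% of osteoblasts and 38.9% of stroma cells, and Mmp14 in 32.5% and 42.3%, against 0.661% and 0.325% of neutrophil-lineage cells. Both transcripts were seen together in 26 of 39 osteoblasts (66.7%, 95% interval 49.8% to 80.9%) and 13 of 26 stroma cells (50%, 29.9% to 70.1%), at the unequal depths given above. All 26 osteoblasts with an Mmp14 UMI also held one of Pth1r, but so did 38 of all 39 osteoblasts, so this cannot show a link between them. One allele of Mmp14 is floxed in every mouse, and the counts do not tell the alleles apart.

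Of 8 genes linked to the parathyroid hormone response, 0 were at least 4-fold higher in osteoblasts and 1 in stroma, against 5.15% and 7.96% of all genes. That gene was the collagenase Mmp13, which was 1586 CPM in stroma and 122 in osteoblasts (log2 ratio -3.70, 95% interval -4.02 to -3.39). The osteoblast UMIs lay in 5 cells, all with between 22 and 41 Bglap UMIs, and at a limit of 40 UMIs for Bglap, Col1a1 and Cxcl12, which leaves 31 osteoblasts and 23 stroma cells, the ratio was -9.96. The 3 stroma cells left out include 1 with 98 Mmp13 UMIs. Of these 5 cells 2 had over 5% erythroid UMIs, and without the cells holding other RNA the ratio was -7.18. With every cell given the same weight the Mmp13 ratio was -2.98. Of 15 metalloproteinases and inhibitors, Mmp2 (log2 ratio 3.35, 95% interval 2.46 to 4.42, or 4.25 at the limit of 40 UMIs), Mmp16 (10.3-fold with stroma set from 0 to 3 counts) and Timp1 (2.65) were higher in osteoblasts, and Mmp13 and Adamts9 (-3.03) in stroma.

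The osteoblasts varied widely among themselves. From 20 to 7862 Bglap UMIs were counted in a cell, and the 20 cells with at least 487 held 97.4% of the group's Bglap UMIs, with a gap down to 289 in the next. Across the 39 cells, log2 CPM of Bglap had a Pearson correlation of 0.98 (Spearman 0.97) with its copy Bglap2, 0.75 (Spearman 0.76) with Col11a2, 0.66 (Spearman 0.70) with Serpinf1 and 0.59 (Spearman 0.63) with Car3. It was -0.46 (Spearman -0.42) with Spp1 and -0.13 (Spearman -0.44) with Ibsp, so these sialoproteins did not rise with osteocalcin. Bglap also followed the total UMIs of the cell, at 0.60 (Spearman 0.67), and all levels share that total, so the values are descriptions of these cells. Runx2 had 0.03 (Spearman -0.10) and Pth1r -0.14 (Spearman -0.18). Spp1 itself was uneven and was in 26 osteoblasts, from 0 to 56571 (median 107) CPM. Tnc, the matrix protein tenascin C, was at least 4-fold higher in stroma (log2 ratio -3.79, 95% interval -4.10 to -3.49), and the 11 osteoblasts with a UMI of it had a median of 38 Bglap UMIs. The 10 osteoblasts with a Cxcl12 UMI had from 20 to 4487 Bglap UMIs, 5 of them at most 65 and 5 at least 1171.

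**Figure D4:**
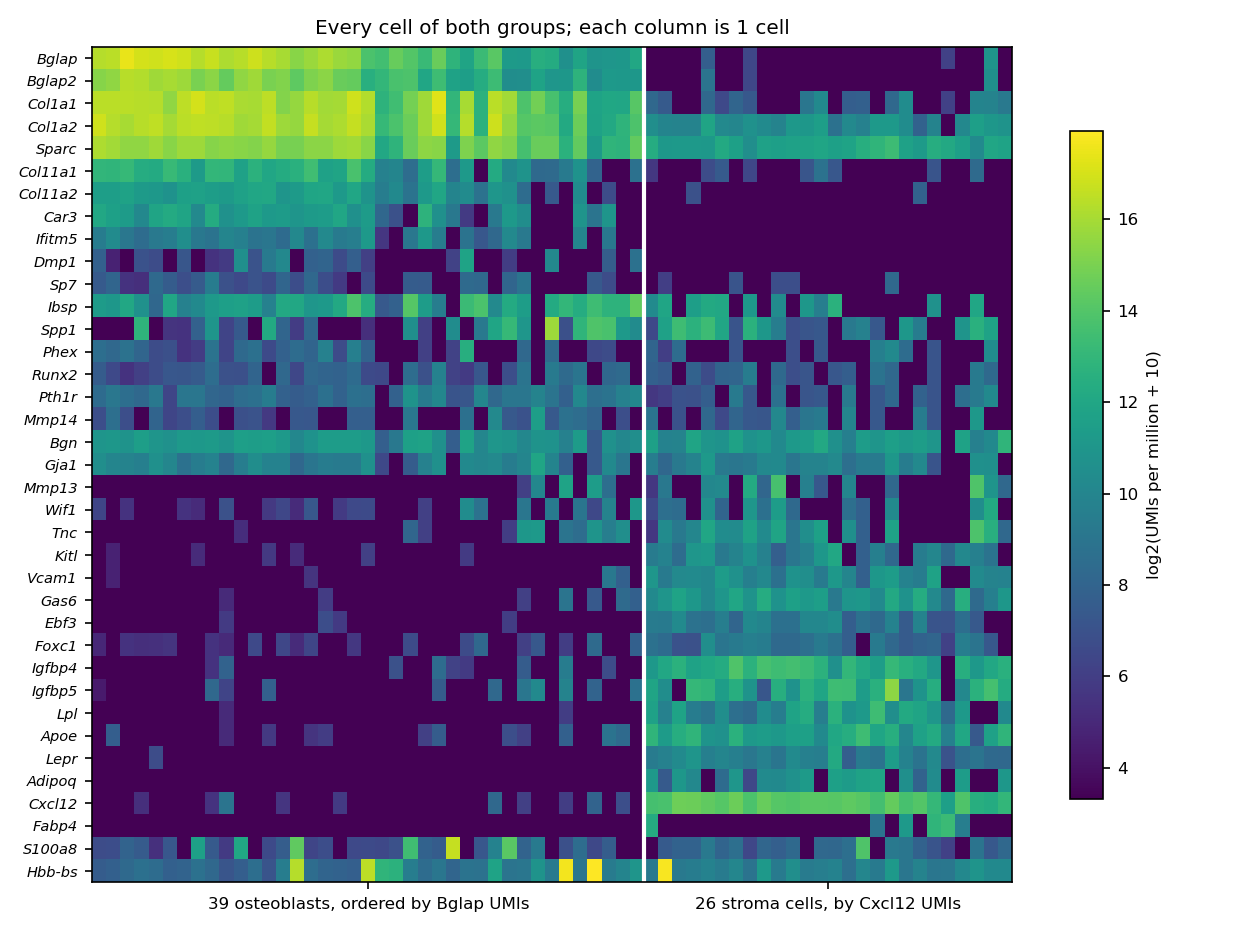
log2(CPM + 10) of selected genes in every osteoblast (left, ordered from high to low Bglap UMIs) and every stroma cell (right, ordered by Cxcl12 UMIs), each column a cell. Car3, Ifitm5 and type XI collagen fade along the osteoblasts while Ibsp and Pth1r do not; the last rows show the cells with Fabp4, neutrophil (S100a8) and erythroid (Hbb-bs) RNA.

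Across the 26 stroma cells, Cxcl12 had a Pearson correlation of 0.72 (Spearman 0.59) with Gas6, 0.72 (Spearman 0.57) with Cxcl14, 0.69 (Spearman 0.53) with Igfbp4 and 0.66 (Spearman 0.58) with Ebf3, and of -0.14 (Spearman -0.01) with total UMIs. With Ibsp it was 0.06 (Spearman 0.02). The 12 stroma cells with an Ibsp UMI, a division made after the values were seen, had a median of 9288 UMIs against 6105 in the 14 without. Cxcl12 was 15745 and 15401 CPM in them, a log2 ratio of 0.03 (95% interval -0.07 to 0.13). Mmp13 was 2538 CPM in the cells with Ibsp and 229 in those without, and at 3000 UMIs it was expected in 61.1% and 34.2% of them, with 1 cell holding 38.4% of the UMIs of the first. Kitl was 1296 and 459 CPM, while Adipoq went the other way, at 1035 and 1485 CPM, as did the bone gene Phex, at 69 and 273 CPM (log2 ratio -1.98, 95% interval -3.27 to -0.84). The stroma cell with 47.4% erythroid UMIs and 2 of the 3 with endothelial markers held Ibsp, and their part in these values was not tested.

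The GFP transgene was a readout that the definitions did not use, although its promoter fragment comes from Col1a1, which they did. GFP transcripts were seen in 26 of 39 osteoblasts (66.7%, 95% interval 49.8% to 80.9%), from 0 to 1622 UMIs a cell (median 23), and summed to 7575 CPM. In stroma they were seen in 0 of 26 cells, which allows a share of cells with a GFP UMI of up to 11.5% by 3 counts (13.2% by the exact interval) and sets no limit on cells that express it below this depth, and the summed level of osteoblasts was above the 16.6 CPM that bounds stroma. In neutrophil-lineage cells 5 of 1978 (0.253%) and in chondrocytes 3 of 298 (1.01%) held a GFP UMI. The 13 osteoblasts without one had a median of 65 Bglap UMIs, against 1585 in the 26 with one, but their range reached 1751. Their median total was 18693 UMIs, against 24490.

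**Figure D5:**
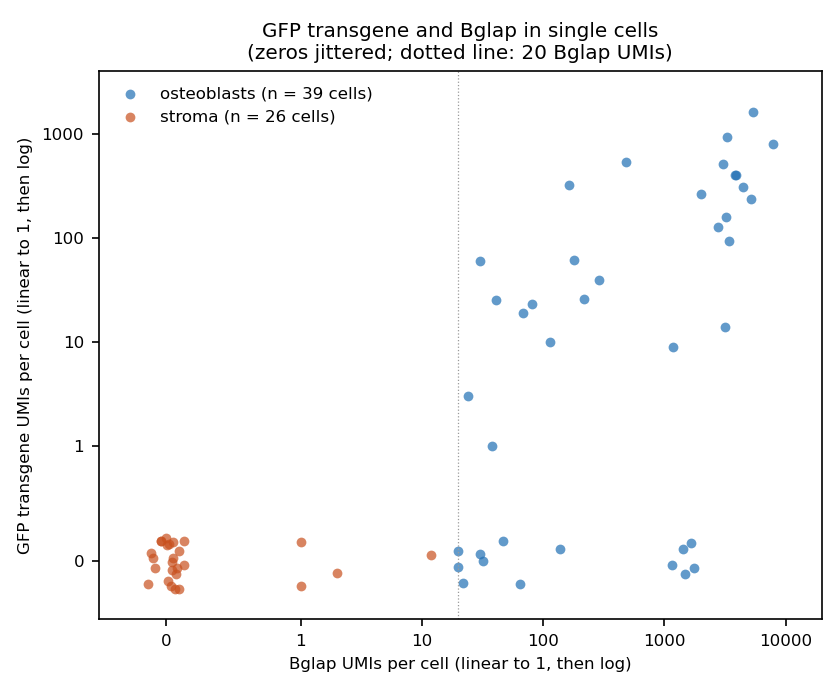
UMIs of the GFP transgene against UMIs of Bglap in each of the 39 osteoblasts and 26 stroma cells, on axes that are linear up to 1 and logarithmic above, with cells at 0 spread slightly apart. No stroma cell held a GFP UMI, and osteoblasts without GFP lie at both low and high Bglap counts.

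Levels in neutrophil-lineage cells are given for genes that led a group, since free RNA can give UMIs in cells that do not make a transcript. In neutrophil-lineage cells Car3 was 0.798, Ifitm5 0.751, Lpl 3.1, Kitl 0 and Gas6 0.939 CPM, far below the group that led in each. Igfbp4 (107 CPM) and Apoe (55.3 CPM) were higher there than in osteoblasts (35.6 and 35.6 CPM). At 3000 UMIs Igfbp4 was expected in 9.43% of osteoblasts and 17.2% of neutrophil-lineage cells, and Apoe in 10.5% and 3.59%. Neutrophil genes themselves passed 4-fold on the osteoblast side in 10 of 13 compared, beside 5.15% of all genes. Camp, an antimicrobial peptide of neutrophils, had a log2 ratio of 3.60, with 55% of its osteoblast UMIs in 1 cell, and the ratio was -0.34 without the cells that held a UMI of the blood cell gene Ptprc. Without those cells S100a8 (1.47), S100a9 (1.73), Ngp (1.70) and Chil3 (1.70) fell under 4-fold as well.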

How the data were processed

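Single-cell transcripts of tibia cells from 3 pooled mice were measured on the 10x Chromium platform. The deposited values are raw counts of UMIs per gene and barcode, which the authors made with Cell Ranger 3.1.0 on mouse genome mm10 and exogenous sequences (GFP, tdTomato, WPRE and others), and the study worked further in Seurat 3. The matrices name no sample, so all 8 samples were treated as 1 pool, and cells were not used as replicates in any test. Coordinates came from GENCODE M21, which held 30934 of 31053 gene identifiers.

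UMIs were summed per group and given as CPM with exact Poisson 95% intervals. Log2 ratios (osteoblasts over stroma) had exact conditional intervals and shares of cells exact Clopper-Pearson intervals. A gene was compared from 50 UMIs upward over both groups, a group at 0 was set to 3 counts, and a gene was called at 4-fold or more. The script was tested on simulated counts. Shares at 3000 UMIs are hypergeometric expectations over the cells of at least that depth, which leave out 0 osteoblasts, 1 stroma cell and 19 neutrophil-lineage cells. Correlations used log2(CPM + 10). Reference cells were 1978 neutrophil-lineage barcodes (Ngp, Ltf and Camp together at least 50 UMIs) and 298 chondrocytes (Col2a1 at least 20 and Acan at least 5 UMIs), chosen from the barcodes that passed the same limits. Scrublet in scanpy 1.11.5 called 264 of 7989 barcodes doublets (3.30%) at an expected rate of 6%, of which 0 were osteoblasts or stroma; no barcode was removed.

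Genes named in the text are the first 15 in each direction by the interval bound nearest 0 (at least 100 UMIs, a UMI in at least 50% of the cells of the higher group, no cell with over 50% of its UMIs), the genes of the definitions, from each gene list the 4 members with most UMIs and the highest and lowest ratio, and Mmp14, Pth1r and GFP. Other genes were named after their values were seen. The cells and the 30 gene lists were chosen with earlier results of these data known. Alternatives changed the limits on genes, mitochondrial UMIs and marker UMIs, the cells kept, the weighting, the scaling and the minimum of UMIs; leaving out barcodes with RNA of other cell types was chosen after seeing the data. Some genes are not reported here.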

Additional observations from a re-analysis of the deposited data

Results flagged for a closer look

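The tdTomato reporter and its WPRE tail were not part of the comparison, and their transcripts were above the level in neutrophil-lineage cells in both groups. WPRE was 1031 CPM in osteoblasts (in 32 of 39 cells) and 1185 CPM in stroma (in 21 of 26), against 49.3 CPM in neutrophil-lineage cells and 305 CPM in chondrocytes. A WPRE UMI was also seen in 34.4% of neutrophil-lineage cells and 40.9% of chondrocytes. Shares of cells with a UMI are therefore not shares of cells that express the reporter. The median cell held 9 WPRE UMIs in osteoblasts and 6.5 in stroma, against 0 in both reference groups. The tdTomato sequence itself was 54 CPM in osteoblasts and 54.1 CPM in stroma, against 1.41 CPM in neutrophil-lineage cells. The intervals of osteoblasts and stroma overlapped for both sequences, 967 to 1099 and 1046 to 1337 CPM for WPRE. Among osteoblasts, the 10 cells with at least 50 WPRE UMIs held 0 to 306 GFP UMIs (median 19.5), and 10 of the 13 cells with at least 100 GFP UMIs held fewer than 50 of WPRE. The suspension was enriched for tdTomato-positive cells before sequencing, and its part in these values was not tested.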

How the results depend on the processing

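The numbers of osteoblasts and stroma cells stayed within 1.5 times under the 5 alternatives that removed or added cells, including the one chosen after seeing the data. The other 3 on the choice of cells (at most 10% mitochondrial UMIs, barcodes meeting both definitions left out, called doublets left out) removed no cell and could move nothing. Without these 3, the count of genes at least 4-fold higher in osteoblasts (137) stayed within 1.5 times under 9 alternatives and that in stroma (212) under 10. It became 87 in osteoblasts without barcodes that held a Ptprc UMI, with 82 of the 137 among them and fewer genes compared (1880). With a minimum of 20 UMIs the counts were 209 and 561, with 200 UMIs 55 and 41, with none 220 and 4046, and at 2-fold 271 and 617; each follows from the minimum or the fold itself. Of 128 named genes compared, 72 passed 4-fold, and 11 of these fell under it in at least 1 alternative. Camp turned sign, to -0.34 without Ptprc barcodes and -0.72 without barcodes holding other RNA. Median ratios of the lists moved by under 0.5 in 333 of their values and by more in 44. No paired analysis was possible because the labels give 1 group in 1 pool. Depth limits what can be said of stroma, where 3 counts are 13.5 CPM.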

Other observations

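Genes of cell stress and of glucose use were compared as well. Of 23 stress and immediate early genes, 0 were at least 4-fold higher in osteoblasts and 1 in stroma, against 5.15% and 7.96% of all genes, with a median log2 ratio of -0.21 against -0.32; Atf3 (1.81) passed 4-fold in osteoblasts in both scalings that move the median. Fos, induced within minutes of a stimulus such as tissue digestion, was 1851 CPM in osteoblasts and 1586 in stroma (log2 ratio 0.22, 95% interval 0.06 to 0.39), and Jun had -0.39 (95% interval -0.58 to -0.19). Hspb1, a small heat shock protein, was the gene past 4-fold (log2 ratio -3.74, 95% interval -4.68 to -2.88), with 1 stroma cell holding 60.4% of its UMIs, and it was -1.62 without the cells holding other RNA. Of 11 genes of glycolysis and hypoxia, 0 were at least 4-fold higher in osteoblasts and 1 in stroma, beside the same shares of all genes; it was the hexokinase Hk2 (log2 ratio -2.26, 95% interval -2.98 to -1.55), which fell under 4-fold in both scalings that move the median (-1.87 and -1.94); Ldha lay near 0 (log2 ratio 0.19, 95% interval -0.32 to 0.72).

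Few genes that act on osteoclasts could be compared. Of 4 with at least 50 UMIs, 2 were at least 4-fold higher in osteoblasts and 2 in stroma, beside 5.15% and 7.96% of all genes. Without Cxcl12, which chose the cells, the counts were 2 and 1 of 3. Those in osteoblasts were Cthrc1 and Lgals1 (Lgals1 log2 ratio 3.17, 95% interval 2.70 to 3.68). Csf1, the growth factor of the macrophage and osteoclast lineage, was higher in stroma (log2 ratio -3.65, 95% interval -4.39 to -2.95) and was in 21 of 26 stroma cells. Its ratio was -4.80 at a limit of 40 UMIs and -3.04 with every cell given the same weight. Tnfsf11 (RANKL), below the minimum of UMIs and named after its values were seen, had 4 UMIs in 2 osteoblasts and 29 in 13 stroma cells (log2 ratio -4.92, 95% interval -6.89 to -3.41). Its soluble inhibitor Tnfrsf11b (osteoprotegerin) had 24 UMIs in 14 osteoblasts and 0 in stroma. With stroma set to 3 counts it was 1.92-fold higher in osteoblasts, which is not a lower bound. Ctsk, a protease made by osteoclasts, was 162 CPM in osteoblasts and 131 in stroma (log2 ratio 0.31, 95% interval -0.27 to 0.94), in 29 and 18 cells.

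Of the other marker lists, summed levels ran from 0 to 5855 CPM over osteoblasts and 0 to 1691 over stroma for 17 chondrocyte genes, against 86116 summed over the chondrocytes. Of 16 macrophage genes, Vcam1 was compared and was higher in stroma, and of 7 Schwann and neural genes 1 was compared and lay within 4-fold. A sum of 76 and 89 UMIs was seen over 12 mural genes in osteoblasts and stroma. Notch3, of the mural list, was in 14 of 26 stroma cells and 2 osteoblasts (log2 ratio -6.02, 95% interval -9.12 to -4.04), and Rgs5 in 2 stroma cells. Beside the counts for these short lists, 5.15% of all genes compared were at least 4-fold higher in osteoblasts and 7.96% in stroma. Of 2 B cell genes compared, Ebf1 was at least 4-fold higher in stroma. Of 2 fibroblast and tendon genes, S100a4 passed 4-fold in osteoblasts and Sfrp4 in stroma, though S100a4 (log2 ratio 2.40) was 1.71 at a limit of 40 UMIs, 1.86 without the cell that holds most and 4.14 without the cells holding other RNA. Of 5 erythroid genes 0 passed, with a median log2 ratio of -0.39, but the stroma sum fell from 39568 to 1661 CPM without its top cell. At a limit of 40 UMIs Hba-a1 (-2.35) and Hba-a2 (-2.49) passed 4-fold in stroma, and with every cell weighing the same their signs turned, to 0.38 and 0.57.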
